A study of Mus musculus with 14 samples.

Results

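Hepatocyte deletion of Rbbp5 was examined here in livers that had received only the injection vehicle, across all expressed genes. The members were the libraries titled LKO or WT with vehicle control, which are 7 of the 14 libraries of the study, 4 LKO and 3 WT. A pair of LKO libraries was counted as 1 sample (below), so 3 LKO samples stood against 3 WT samples over 9644 genes tested of 24411 in the files. All animals were male littermates of 5 to 7 months and carried Rbbp5 (flox/flox). WT animals were Alb-CRE (-/-) and LKO animals were Alb-CRE (+/-). Cre driven by the albumin promoter acts in hepatocytes, and deletion in the other liver cells of LKO animals was not measured here. No animals with Cre and unfloxed Rbbp5 are among the groups, so deletion and Cre itself cannot be told apart. Every animal used here had an intraperitoneal injection of 3% DMSO in PBS, made between 9 and 10 in the morning, 8 h before the liver was taken. The remaining 7 libraries came from mice of the same genotypes given tunicamycin at 0.05 mg/kg in 500 µl of that vehicle. They entered the filter on low counts, the scaling and the estimate of the spread, and the comparisons that name them. Sample titles spell the deleted gene RRBP5, and the design text names Rbbp5.

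RBBP5 is, with WDR5, ASH2L and DPY30, a core subunit shared by the SET1 and MLL families of complexes that methylate histone H3 at lysine 4 (H3K4), a mark of active promoters and enhancers. The core subunits hold the catalytic subunit in an active shape, and RBBP5 contacts it directly. In the adult liver, hepatocytes make plasma proteins, bile acids, lipids and drug-metabolising enzymes. Stellate cells and portal fibroblasts make most of the fibrillar collagen.

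The vehicle libraries held from 6507018 to 13519421 sense-strand reads on genes, of which Rn45s, the 45S ribosomal RNA precursor, took from 72.6 to 74.3%. This left from 1750308 to 3551398 reads per library for all other genes. The reads of LKO vehicle libraries 3 and 4 gave a chi-square per degree of freedom of 1.12, close to counting error alone, where the other pairs of vehicle libraries gave at least 3.38. Their reads were summed and are called LKO vehicle 3. The labels do not say whether the libraries of a group came from separate animals, so p-values measure only the spread between these samples. LKO vehicle 1 and LKO vehicle 2 stand apart in single measures, Rbbp5 and acute-phase genes respectively. Many list medians are small and moved when 1 vehicle sample was left out, so the values without a sample are given beside those lists that moved most. The hepatocyte identity of the tissue was checked by albumin, Alb, which lay between 12511 and 14136 CPM (reads scaled to a common library size by TMM) in WT vehicle and between 10744 and 17921 CPM in LKO vehicle. Of 9 pancreas genes 6 had no read in any vehicle sample, and the list summed to 1.80 to 2.43 CPM in WT and 1.13 to 1.90 CPM in LKO. All 6 adult globin genes listed had no read, but the erythroid list summed to 18.1 to 25.4 CPM in WT and 16.4 to 21.4 CPM in LKO, nearly all of it Alas2, the erythroid enzyme of haem synthesis. The globin zeros are therefore not read as a check on blood content.

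Rbbp5 (chr1:132477348-132505665, GRCm38) was at 4.07, 6.41 and 5.10 CPM in WT vehicle 1 to 3 and at 4.15, 1.90 and 2.79 CPM in LKO vehicle 1 to 3. The groups overlapped, because the library labelled LKO vehicle 1 lay within the WT range while the other two LKO samples lay below it. The log2 fold change of LKO against WT was -0.87 ± 0.26 (SE), and edgeR's quasi-likelihood test gave a Benjamini-Hochberg adjusted p of 0.330. An exact permutation test of the CPM values (two-sided) gave p = 0.2, where 0.1 is the smallest value that 3 against 3 allows. The deleted exons are not given in the sources used here, and a gene-level count can include reads from exons that remain. RNA of any liver cells that keep the gene adds to the same count. In bulk RNA, fewer cells of a type and less RNA per cell cannot be told apart, here and in all results that follow. Averaged over vehicle and tunicamycin samples, Rbbp5 fell, with a log2 fold change of -0.89 ± 0.18 and an edgeR adjusted p of 0.0181.

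None of the other 19 genes listed for the H3K4 methyltransferase complexes passed the test with vehicle. Of all 20, 9 had a higher and 11 a lower value in LKO, with a median log2 fold change of -0.02, beside 0.00 over all genes tested. The core partners stayed within the spread of the samples: Wdr5, the docking subunit, was at -0.35 ± 0.21, Ash2l at 0.25 ± 0.21 and Dpy30 at -0.02 ± 0.20 on the log2 scale. Setd1b, a catalytic subunit of the SET1 family, was at 15.1, 14 and 13.8 CPM in WT vehicle and at 10.9, 10.7 and 11.2 CPM in LKO vehicle. Its groups did not overlap, with a log2 fold change of -0.39 ± 0.18 and an edgeR adjusted p of 0.583. Kdm6a, the H3K27 demethylase of the MLL3 and MLL4 complexes, was at -0.35 ± 0.18.

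The comparison asks what loss of Rbbp5 does to the liver transcriptome when no stress is added. At an edgeR adjusted p under 0.05, 4 of 9644 genes were called (0.0415%), 3 higher (0.0311%) and 1 lower (0.0104%) in LKO. A log2 fold change above 0 was found for 50.9% of all genes tested. At an unadjusted p below 0.05 there were 786 genes (8.15%), 454 higher (4.71%) and 332 lower (3.44%). CPM ranges of the groups did not overlap for 1456 genes (15.1%), 725 higher and 731 lower. The called genes described here are Serpine2, Ly6e and Col6a3, each with an edgeR adjusted p of 0.0360. The call depends on every WT sample: without any 1 of the 3 WT vehicle samples edgeR called no gene, while DESeq2 on all samples called 20.

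Serpine2, which encodes protease nexin-1, a secreted serine protease inhibitor, was at 8.62, 5.77 and 7.87 CPM in WT vehicle and at 1.78, 2.92 and 1.90 CPM in LKO vehicle. All LKO samples lay below all WT samples, and the gene fell by 1.73 ± 0.28 on the log2 scale. Ly6e, an interferon-inducible membrane protein of the Ly6 family, was at 28.9, 21.3 and 19.8 CPM in WT vehicle and at 52.8, 79.9 and 57.6 CPM in LKO vehicle. It rose by 1.44 ± 0.23 on the log2 scale, with no overlap between the groups. Col6a3, a chain of the microfibrillar collagen VI, was at 2.04, 1.92 and 3.35 CPM in WT vehicle and at 12.2, 7.52 and 9.85 CPM in LKO vehicle. It rose by 2.01 ± 0.33 on the log2 scale, again without overlap. Leaving out LKO vehicle 1 or LKO tunicamycin 2 ended all these calls, leaving out LKO vehicle 2 ended that of Ly6e, and leaving out LKO vehicle 3 ended those of Serpine2 and Col6a3.

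Because H3K4 methylation is concentrated at promoters rich in CG dinucleotides, the 250 bases before the transcription start are shown for 4 genes (RefSeq, GRCm38.p6, 5′ to 3′ on the gene's strand). They are 2 of the called genes, Serpine2 and Col6a3, and Ntrk2 and Gldn, described further on, which were almost silent in WT liver. Bases inside a longer gene model are left out, which shortens the sequences of Col6a3 and Ntrk2 to 220 and 153 bases. Capitals mark each CG. Ly6e is not shown.
Serpine2, chr1:79858666-79858915, minus strand: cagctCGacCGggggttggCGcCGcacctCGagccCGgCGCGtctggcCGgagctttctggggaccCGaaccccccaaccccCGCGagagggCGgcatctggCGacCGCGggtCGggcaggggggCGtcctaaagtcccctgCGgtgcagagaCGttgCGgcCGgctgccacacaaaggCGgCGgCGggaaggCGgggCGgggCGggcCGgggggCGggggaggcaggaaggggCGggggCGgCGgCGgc
Col6a3, chr1:90844002-90844221, minus strand: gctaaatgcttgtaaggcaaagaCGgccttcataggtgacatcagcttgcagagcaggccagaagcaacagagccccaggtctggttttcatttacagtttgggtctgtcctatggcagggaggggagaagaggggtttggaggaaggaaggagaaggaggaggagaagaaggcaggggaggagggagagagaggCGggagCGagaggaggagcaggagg
Ntrk2, chr13:58806319-58806471, plus strand: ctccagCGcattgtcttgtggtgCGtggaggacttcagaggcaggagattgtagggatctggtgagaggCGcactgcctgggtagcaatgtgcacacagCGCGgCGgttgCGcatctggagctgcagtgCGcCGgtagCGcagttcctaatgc
Gldn, chr9:54286236-54286485, plus strand: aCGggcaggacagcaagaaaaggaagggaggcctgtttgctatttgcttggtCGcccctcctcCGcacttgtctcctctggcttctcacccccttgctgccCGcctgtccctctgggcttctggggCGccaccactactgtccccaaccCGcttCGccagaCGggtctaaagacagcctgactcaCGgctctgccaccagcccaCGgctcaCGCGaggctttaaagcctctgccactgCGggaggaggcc

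In the full 250 bases, the promoter of Serpine2, the gene that fell, holds 34 CG dinucleotides, and 97.0% of the 32851 mouse promoters in the table hold as many or fewer. Col6a3 holds 3 (37.8%), Ntrk2 19 (82.1%) and Gldn 13 (70.6%), and the median over all promoters is 6. The motif searched was CG, which reads the same on both strands. Tested genes were counted over 300 bases, which add the first 50 of the transcript. Where a gene has several entries, the one with the most CG was kept, which can raise the median. That median over the 7415 tested genes with an entry is 23, and it is not on the same scale as the 6 above. Over the same 300 bases Serpine2 holds 41, Ntrk2 23, Gldn 17 and Col6a3 3, so the genes shown that were higher in LKO lay at or below that median. With these tested genes split into 4 groups of similar size by that count, the median log2 fold change with vehicle was 0.01, -0.01, 0.00 and 0.01 from the CG-poorest to the CG-richest group. At an unadjusted p below 0.05, 6.22% of the genes of the CG-poorest group were higher in LKO, and 3.84% of those of the CG-richest. The share that was lower was 4.18% and 2.56% in the same groups.

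**Figure D1:**
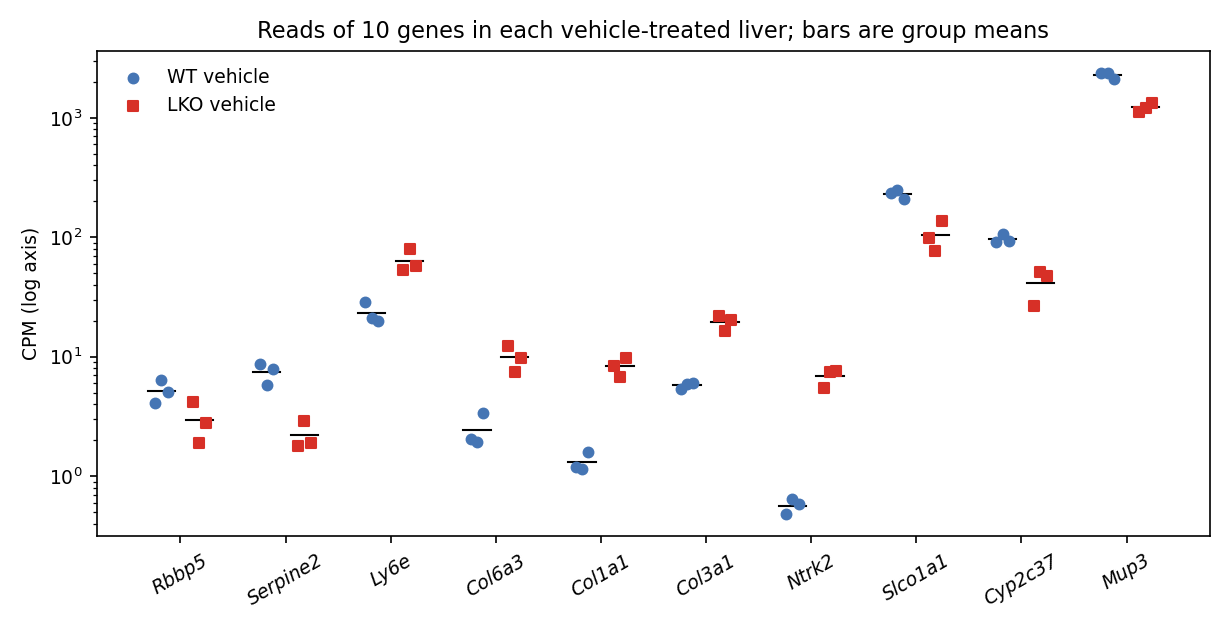
CPM on a log axis (y) of 10 genes (x) in each vehicle-treated sample, WT as circles and LKO as squares, with the group mean as a bar. The groups do not overlap for any gene but Rbbp5, whose LKO vehicle 1, at 4.15 CPM, lies among the WT samples.

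Of the lists examined, that of collagens and the extracellular matrix had the most genes higher in LKO at an unadjusted p below 0.05. Of 47 listed, 38 were tested, 34 had a higher value in LKO, and the median log2 fold change was 0.56, beside 0.00 over all genes tested. At an unadjusted p below 0.05, 22 were higher (4.71% of all genes tested) and 2 lower (3.44%). CPM ranges did not overlap for 22 higher (7.52%) and 2 lower members (7.58%). Adjusted over all genes, 1 member rose, Col6a3, and 1 fell, Serpine2. Averaged over both treatments, 11 rose (1.35%) and 1 fell (0.861%).

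The fibrillar collagens include those of the rope-like fibres of scar and vessel wall. Of these genes, Col1a1, Col1a2 and Col3a1 lay near 1 to 6 CPM in WT liver. Col27a1, also a fibrillar collagen, was lower in LKO and is given below. Col1a1 was at 1.2, 1.15 and 1.6 CPM in WT vehicle and at 8.41, 6.79 and 9.73 CPM in LKO vehicle. Its log2 fold change of 2.66 ± 0.52 did not pass over all genes, with an edgeR adjusted p of 0.0794. Col1a2, the partner chain of collagen I, was at 2.04, 2.31 and 2.62 CPM in WT and at 8.29, 7.59 and 11.7 CPM in LKO (2.01 ± 0.36, edgeR adjusted p of 0.0545). In both genes every LKO sample exceeded every WT sample severalfold. Col3a1 was at 5.39, 5.89 and 5.98 CPM in WT and at 21.8, 16.4 and 20.4 CPM in LKO, a log2 fold change of 1.76 ± 0.41 (edgeR adjusted p of 0.221). Col5a1 and Col5a2, chains of collagen V that nucleates such fibres, were at 1.42 ± 0.36 and 2.04 ± 0.60, again with no overlap. Averaged over both treatments, Col1a1, Col1a2, Col3a1, Col5a1 and Col5a2 rose, with edgeR adjusted p of 0.0101, 0.00252, 0.0173, 0.0427 and 0.0427.

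Most other matrix genes had the same direction. Fbn1, the microfibril protein fibrillin-1, was at 1.32, 1.28 and 1.17 CPM in WT and at 4.86, 3.43 and 3.26 CPM in LKO. Its groups were well separated, with a log2 fold change of 1.57 ± 0.27 and an edgeR adjusted p of 0.0532. Col6a2, which assembles with Col6a3, was at 1.74 ± 0.49. Fn1, fibronectin, which hepatocytes also secrete into plasma, was the most abundant member and overlapped between the groups, at 0.21 ± 0.27. Col27a1 went the other way, with 10.1, 5.51 and 6.85 CPM in WT and 3.32, 2.56 and 4.45 CPM in LKO. All its LKO samples lay below its WT samples, at -1.10 ± 0.28, without passing over all genes (edgeR adjusted p of 0.260). Leaving out 1 vehicle sample in turn left 32 to 35 members with a higher value and a median of 0.50 to 0.75. The number higher at an unadjusted p below 0.05 then ranged from 13, without WT vehicle 1, to 22, without LKO vehicle 2.

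**Figure D2:**
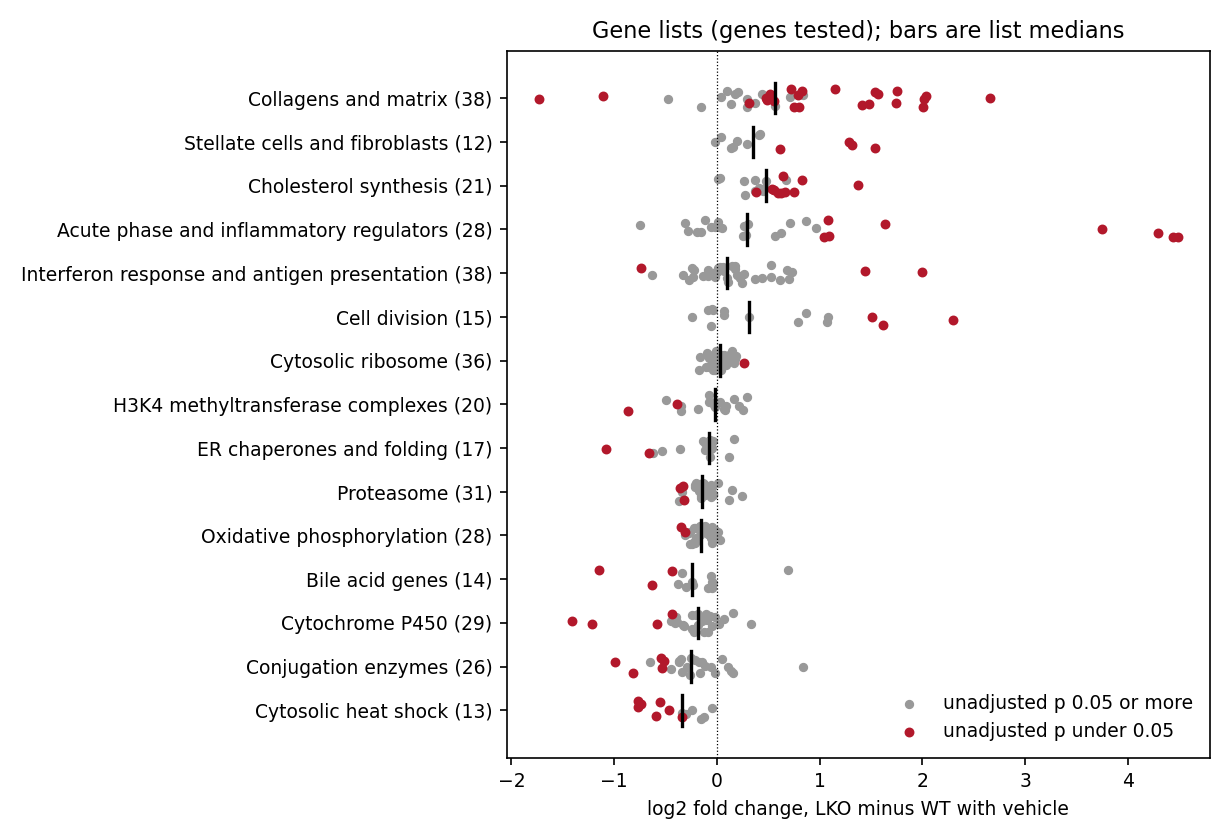
Log2 fold change of LKO against WT with vehicle (x) for the tested genes of 15 lists (y, number tested in brackets), with list medians as bars and genes at an unadjusted p below 0.05 in red. The matrix, stellate and cholesterol lists lie mostly above 0, and cytosolic heat shock lies wholly below 0.

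Markers of other liver cells were read beside the matrix genes. Of 15 markers of stellate cells and fibroblasts, 12 were tested and 11 had a higher value in LKO, with a median log2 fold change of 0.35. At an unadjusted p below 0.05, 4 were higher (4.71% of all genes tested) and 0 lower (3.44%). The summed level of the list was 88.4 to 139 CPM in WT vehicle and 126 to 174 CPM in LKO vehicle. The median was 0.16, with 8 of 12 higher, without WT vehicle 1, and 0.12, with 9 of 12 higher, without LKO vehicle 3. The sums overlap, since the abundant markers Dcn and Reln overlapped between the groups. Pdgfrb, a receptor of mesenchymal cells, was at 0.96, 0.90 and 1.75 CPM in WT and at 2.73, 3.36 and 2.73 CPM in LKO (1.31 ± 0.33), and Lum, the collagen-binding proteoglycan lumican, was at 1.54 ± 0.38. Both rose in the average over treatments, with edgeR adjusted p of 0.0162 and 0.0146. Tagln, a contractile gene of activated stellate cells, was at 1.29 ± 0.52 and did not pass in either comparison. Of 6 mesothelium markers, Krt8 and Krt18 were tested, keratins that hepatocytes and duct cells also make. Both were higher at an unadjusted p below 0.05, at 0.37 ± 0.15 and 0.39 ± 0.15, and did not overlap between the groups. The list summed to 44.9 to 49.5 CPM in WT vehicle and 56.0 to 65.2 CPM in LKO vehicle. The defining markers Msln, Upk3b, Wt1 and Lrrn4 had 0 to 5 reads in each sample. The part of stellate, fibroblast and mesothelial cells in the level of the matrix genes was not tested.

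Kupffer cells and macrophages, and sinusoidal endothelium, had medians near 0 whose sign depended on single samples. Of 13 tested macrophage markers 5 were higher, with a median of -0.06 which was 0.08 without LKO vehicle 1 and -0.26 without LKO vehicle 3, and summed levels of 82.0 to 94.3 CPM in WT and 67.5 to 104 CPM in LKO. Of 15 tested endothelial markers 5 were higher, with a median of -0.07, which was 0.05 without LKO vehicle 2 and -0.32 without LKO vehicle 3, and sums of 145 to 165 CPM in WT and 120 to 187 CPM in LKO. In both lists the LKO samples spread to either side of the WT samples.

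Bile duct markers were at low counts, and only 4 of 12 were tested, all with a higher value in LKO. Their summed level was 12.1 to 16.4 CPM in WT and 22.9 to 63.0 CPM in LKO, without overlap, and Spp1 made up most of it in each LKO sample. Spp1, the secreted phosphoprotein osteopontin, was at 9.58, 6.92 and 4.37 CPM in WT and at 12.1, 51.0 and 34.8 CPM in LKO. LKO vehicle 1 lay just above the highest WT sample and the others far above, with a log2 fold change of 2.23 ± 0.59 and an edgeR adjusted p of 0.293. Cd24a was at 1.57 ± 0.38, and Sox9, a duct and progenitor transcription factor, overlapped at 0.52 ± 0.36. Spp1 and Cd24a rose in the average over treatments, with edgeR adjusted p of 0.0270 and 0.0475. The defining keratin Krt19 had 1, 1 and 0 reads in WT and 1, 1 and 14 reads in LKO, and Epcam had 1, 0 and 0 reads in WT and 3, 11 and 7 in LKO. Hepatocyte markers were slightly lower as a list: 10 of 13 had a lower value, with a median of -0.21, and 7 of 13 without WT vehicle 2. The nuclear receptor Nr1i3 was at -0.52 ± 0.20 and the plasma protease inhibitor Serpina1c at -0.32 ± 0.16. Foxa3, a liver transcription factor, was at -0.28 ± 0.15 with vehicle and fell in the average over treatments (-0.55, edgeR adjusted p of 0.0111).

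A small number of genes were almost silent in WT liver and present in every LKO sample. Ntrk2 (chr13:58806472-59133970), the receptor tyrosine kinase of brain-derived neurotrophic factor, was at 0.48, 0.64 and 0.58 CPM in WT vehicle, from 4, 5 and 4 reads. In LKO vehicle it was at 5.45, 7.52 and 7.65 CPM, from 46, 103 and 129 reads. The groups were far apart, with a log2 fold change of 3.59 ± 0.87, but the model gave an adjusted p of 0.256 in edgeR, and DESeq2 called it (adjusted p of 0.0401). Averaged over both treatments it rose, with an edgeR adjusted p of 0.00839.

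Gldn (chr9:54286486-54341777), which encodes gliomedin, an adhesion protein known from Schwann cells, had 0 reads in all 3 WT vehicle samples and 26, 18 and 22 reads in the LKO vehicle samples. Pooled over the group, this was at least 13-fold higher in LKO, taking a floor of 3 counts over the WT group. Lrtm2, a membrane protein with leucine-rich repeats, had 0 reads in WT and 27, 15 and 14 reads in LKO, at least 11-fold higher on the same floor. It did not pass the filter on low counts. These genes met a rule set after values were seen, at most 1 read over the WT group and at least 10 in each LKO sample. The LKO vehicle samples hold more reads, 7809233 to 16299026 beside 6497708 to 7914531 in WT, which makes such a rule on reads easier to meet in LKO, so the reverse pattern is not compared. The folds above are on the CPM scale, and floors cover counting error only. In LKO mice given tunicamycin Gldn again had reads in each sample (10, 23, 153 and 37), and WT mice given tunicamycin had 0, 1 and 0. Lrtm2 had 1, 9, 26 and 4 reads in LKO and 0, 1 and 0 in WT mice given tunicamycin. Its lowest LKO sample there was thus level with the highest WT sample. Rian, a non-coding RNA of the imprinted Dlk1-Dio3 region, had 0, 0 and 1 reads in WT vehicle and 9, 27 and 22 reads in LKO vehicle, with an edgeR adjusted p of 0.0574.

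Cxcl14, a chemokine, was at 0.72, 0.38 and 0.44 CPM in WT and at 0.83, 6.50 and 2.37 CPM in LKO, so LKO vehicle 1 lay close to WT (2.68 ± 0.77). Itga8, an integrin chain of mesenchymal cells, was at 2.04, 3.08 and 1.17 CPM in WT and at 5.92, 4.38 and 5.40 CPM in LKO, at 1.29 ± 0.30 and without overlap. Fmn1, an actin nucleator, was at 1.30 ± 0.30, and Emp2, a membrane protein, at 1.27 ± 0.37. Averaged over both treatments, Cxcl14, Itga8, Fmn1 and Emp2 rose, with edgeR adjusted p of 0.0101, 0.00252, 0.00252 and 0.0101.

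Among genes that averaged a log2 CPM of 2 or more, acute-phase genes had the highest fold changes, and these were carried mainly by a single LKO sample. Lcn2, the iron-siderophore-binding lipocalin-2, was at 4.07, 3.33 and 8.45 CPM in WT vehicle and at 21.8, 285 and 32.6 CPM in LKO vehicle. Orm2, an orosomucoid, was at 4.67, 6.53 and 8.02 CPM in WT and at 17.8, 324 and 32.2 CPM in LKO. For both genes all LKO samples exceeded all WT samples, and LKO vehicle 2 was about an order of magnitude above the other two. The log2 fold changes were 4.44 ± 1.13 and 4.29 ± 1.11, and neither passed over all genes (edgeR adjusted p of 0.260 for both).

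The serum amyloid genes, whose near-identical copies can share reads, overlapped between the groups. Saa1 was at 20.6, 21.1 and 67.5 CPM in WT and at 66.5, 1185 and 209 CPM in LKO. Saa2 was at 11.9, 17.9 and 63.8 CPM in WT and at 60.7, 1754 and 275 CPM in LKO. In both, LKO vehicle 1 lay just below the highest WT sample. The log2 fold changes were 3.75 ± 0.97 and 4.49 ± 1.15. With tunicamycin, the summed CPM of the 4 genes Saa1, Saa2, Lcn2 and Orm2 was 4136 and 4213 in WT tunicamycin 1 and 2, 155 in WT tunicamycin 3, and 3030 to 6223 in LKO. The same sum in LKO vehicle 2 was 3549, within that last range, and in WT vehicle it was 41.2 to 148. So the sample labelled LKO vehicle 2 had the acute-phase level of most tunicamycin samples, and the sample labelled WT tunicamycin 3 lay just above the WT vehicle samples. Hspa5, an ER chaperone gene induced by ER stress, did not share that pattern: it was at 117 CPM in LKO vehicle 2 and at 786 CPM in WT tunicamycin 3.

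Neutrophil markers, read because Lcn2 is also a neutrophil gene, summed to 0.38 to 0.87 CPM in WT vehicle and 0.71 to 2.63 CPM in LKO vehicle, highest in LKO vehicle 2, and Elane and Camp had no read. Their part in the acute-phase values was not tested.

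Over the acute-phase list, 20 of 28 tested genes had a higher value in LKO, with a median log2 fold change of 0.29. At an unadjusted p below 0.05, 8 were higher (4.71% of all genes tested) and 0 lower (3.44%). Without LKO vehicle 2 the median was 0.03 and 4 were higher at that p, and without LKO vehicle 3 the median was 0.50. C3, the central complement component, was at 1956, 1872 and 2094 CPM in WT and at 3224, 3889 and 2515 CPM in LKO. It did not overlap, and its log2 fold change was 0.70 ± 0.31 (edgeR adjusted p of 0.570). Among 30 complement and coagulation genes, 24 had a higher value, with a median of 0.08. This was 19 genes and a median of 0.04 without LKO vehicle 2, and without LKO vehicle 1 or 3 the median was 0.14 or 0.15.

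**Figure D3:**
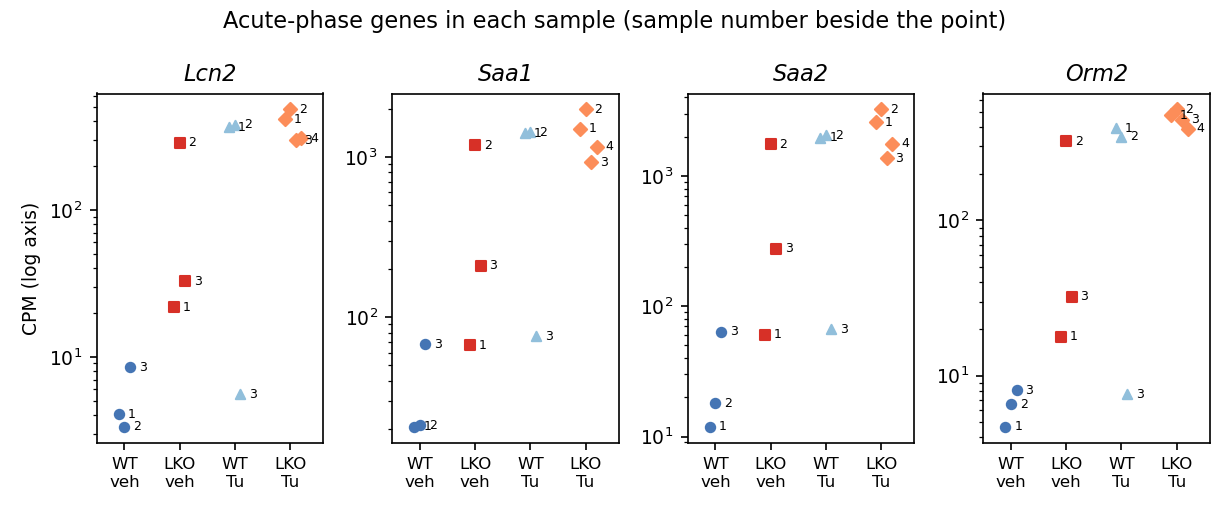
CPM on a log axis (y) of Lcn2, Saa1, Saa2 and Orm2 in each sample of the 4 groups (x; veh, vehicle; Tu, tunicamycin), with the sample number beside each point. LKO vehicle 2 lies among the tunicamycin samples, and WT tunicamycin 3 lies within the WT vehicle range for Lcn2 and Orm2 and just above it for Saa1 and Saa2.

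All 21 tested genes of cholesterol synthesis had a higher value in LKO, with a median log2 fold change of 0.48. At an unadjusted p below 0.05, 10 were higher (4.71% of all genes tested) and 0 lower. CPM ranges did not overlap for 1 of the 21, a smaller share than the 7.52% of all genes tested that were higher without overlap. Sqle, squalene epoxidase, was at 6.23, 14.2 and 10.5 CPM in WT and at 26.3, 41.7 and 12.5 CPM in LKO. LKO vehicle 3 lay within the WT range, and the log2 fold change was 1.38 ± 0.35 (edgeR adjusted p of 0.260). Idi1, isopentenyl diphosphate isomerase, was at 0.75 ± 0.28, Fdft1, squalene synthase, at 0.60 ± 0.25, and Cyp51, the lanosterol demethylase, at 0.64 ± 0.27. Without LKO vehicle 2 the list had 17 of 21 genes higher, a median of 0.24 and 1 gene at an unadjusted p below 0.05, and without WT vehicle 1 it had 18, 0.29 and 1. Without LKO vehicle 3, the low LKO sample, the median was 0.77 and 17 genes were higher at that p. Over all genes tested, 1155 of 9891 were then at that p in either direction, beside 786 of 9644 with all samples. In the average over treatments Sqle rose (0.94 ± 0.23, edgeR adjusted p of 0.0475) and the other 20 did not pass.

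**Figure D4:**
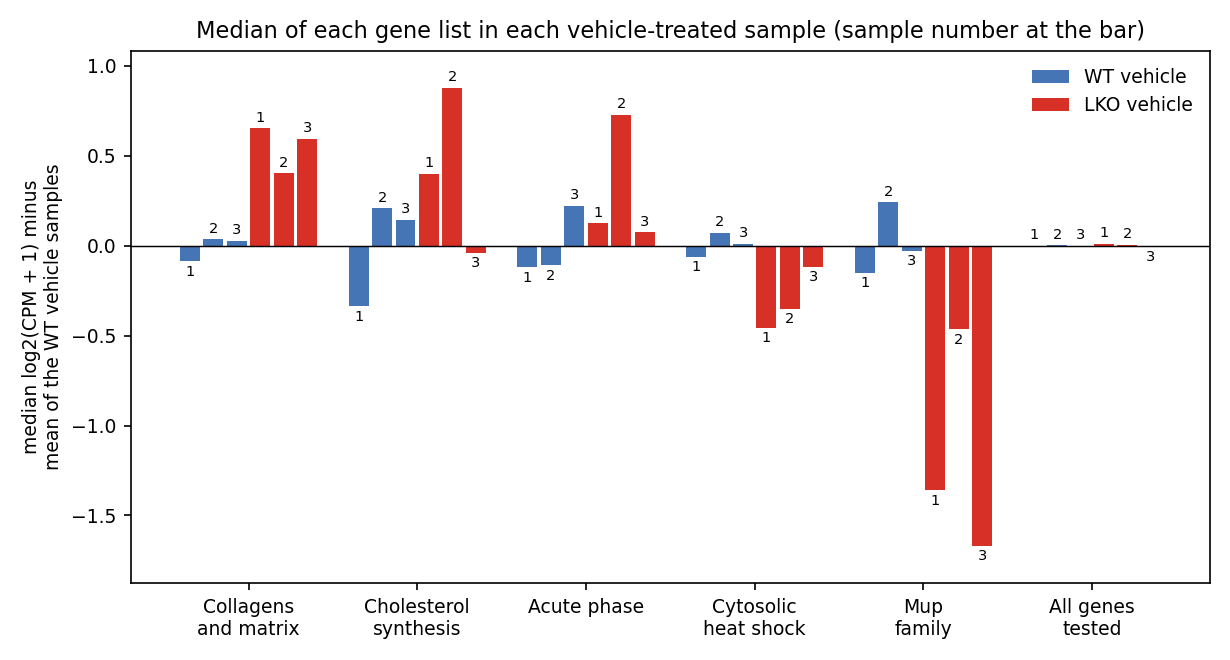
Median over the tested genes of each list (x) of log2(CPM + 1) minus the mean of the WT vehicle samples (y), for each vehicle-treated sample, whose number stands at its bar. The matrix list is high in all 3 LKO samples, cholesterol synthesis in LKO vehicle 1 and 2 but not 3, and the acute-phase list mainly in LKO vehicle 2.

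The plot of list medians by sample separates lists that all LKO samples share from lists that rest on some of them. For matrix genes the per-sample medians were 0.65, 0.40 and 0.59 in LKO vehicle 1 to 3, and from -0.09 to 0.04 in WT. For cholesterol synthesis they were 0.40, 0.88 and -0.04 in LKO, and from -0.34 to 0.21 in WT. For the acute phase they were 0.13, 0.73 and 0.07 in LKO, and from -0.12 to 0.22 in WT.

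Heat shock genes, which encode chaperones of the cytosol, the mitochondrial chaperonin pair Hspd1 and Hspe1 and the regulator Hsf1, all had a lower value in LKO. Of 13 tested, 0 were higher, with a median log2 fold change of -0.34, and 7 were lower at an unadjusted p below 0.05 (3.44% of all genes tested). Hsph1, a nucleotide exchange factor for Hsp70, was at 23.2, 21.5 and 20.4 CPM in WT and at 10.2, 8.25 and 19.3 CPM in LKO. LKO vehicle 3 lay close below the WT samples and the others far below, at -0.76 ± 0.23 (edgeR adjusted p of 0.330). Hspe1, the mitochondrial co-chaperonin, was at 36.6, 31.0 and 45.5 CPM in WT and at 27.4, 22.8 and 25.2 CPM in LKO, without overlap (-0.59 ± 0.19). The abundant Hspa8, the constitutive Hsp70, was at 198, 248 and 206 CPM in WT and at 147, 98.7 and 227 CPM in LKO, with overlap (-0.47 ± 0.22). Hsp90ab1 was at -0.24 ± 0.14 and Dnaja1 at -0.34 ± 0.13. Without LKO vehicle 1, LKO vehicle 2 or WT vehicle 3, 3 genes were lower at an unadjusted p below 0.05, and without WT vehicle 2, 4. Without LKO vehicle 3 the median was -0.52. Averaged over treatments Hsph1 and Hspe1 fell, with edgeR adjusted p of 0.0181 and 0.0430.

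Chaperones of the endoplasmic reticulum (ER) differed little as a list when no tunicamycin was given. Of 17 tested, 15 had a lower value, with a median of -0.07. At an unadjusted p below 0.05, 2 were lower (3.44% of all genes tested), and without overlap 4 were lower and 0 higher (7.58%, 7.52%). Without LKO vehicle 1 the median was 0.01 and 8 of 17 had a lower value, and without LKO vehicle 2 it was -0.23 and all 17 had one. Without WT vehicle 1 it was -0.13. Hspa5, the main ER Hsp70 known as BiP, was at 197, 211 and 253 CPM in WT and at 127, 117 and 173 CPM in LKO. Every LKO sample was below every WT sample, at -0.66 ± 0.29 (edgeR adjusted p of 0.557). Creld2, a secreted ER stress protein, was at 8.98, 8.33 and 10.8 CPM in WT and at 2.49, 2.41 and 7.59 CPM in LKO (-1.08 ± 0.51). Syvn1, the ER ubiquitin ligase Hrd1, was at -0.71 ± 0.36 and the co-chaperone Dnajb9 at -0.62 ± 0.30. In the average over treatments 7 of the 17 fell (0.861% of all genes tested). After tunicamycin alone Hspa5 stood at -1.78 and Creld2 at -3.0, and the test of the difference between treatments gave no call for either.

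Proteasome and oxidative phosphorylation genes had small differences of the same sign. Of 31 proteasome genes 27 had a lower value, with a median of -0.15. At an unadjusted p below 0.05, 3 were lower (3.44% of all genes tested), and without overlap 8 were lower and 0 higher (7.58%, 7.52%). Psmd2, a subunit of the regulatory particle, was at 25.1, 24.9 and 29.2 CPM in WT and at 20.4, 19.8 and 21.4 CPM in LKO, without overlap (-0.36 ± 0.12, edgeR adjusted p of 0.433). Of 28 subunits of oxidative phosphorylation 26 had a lower value, with a median of -0.15. Of these, 2 were at an unadjusted p below 0.05 (3.44% of all genes tested). Without overlap, 10 of the 28 were lower (7.58% of all genes tested) and 0 higher (7.52%). Without LKO vehicle 2 that median was -0.10, with 20 of 28 lower. Of 36 ribosomal protein genes 21 were higher, with a median of 0.03, which turned to -0.01 without WT vehicle 3 and -0.03 without LKO vehicle 3. These small leans depend on the scaling. On the log2(FPKM + 1) scale 31 of 36 ribosomal protein genes were higher, with a median of 0.13 and 6 at an unadjusted p below 0.05. On that scale 19 of 31 proteasome genes were lower, with a median of -0.04, and 21 of 28 oxidative phosphorylation genes, with a median of -0.07. Of 20 genes of fatty acid oxidation and ketogenesis 17 had a lower value, with a median of -0.17. At an unadjusted p below 0.05, 3 were lower (3.44% of all genes tested), and without overlap 4 were lower and 0 higher (7.58%, 7.52%). Without LKO vehicle 3 the median was -0.34 with 10 at that p, and without LKO vehicle 2 it was -0.11 with 14 lower. More genes of any kind were at that p without LKO vehicle 3, 1155 of 9891 beside 786 of 9644.

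Secreted pheromone-binding proteins and transporters were among the largest decreases in value. Mup3, an abundant major urinary protein, was at 2377, 2373 and 2116 CPM in WT and at 1126, 1214 and 1322 CPM in LKO. The groups were tight and well apart, at -0.91 ± 0.27, with an edgeR adjusted p of 0.330 with vehicle and 0.0171 in the average over treatments, where it fell. Mup12 was at 37.7, 59.3 and 59.3 CPM in WT and at 12.6, 21.9 and 10.4 CPM in LKO (-1.80 ± 0.60). Of 10 tested genes of the family, 9 had a lower value, with a median of -1.12. At an unadjusted p below 0.05, 7 were lower (3.44% of all genes tested). The copies are nearly identical in sequence, so reads may be split between them and values of single Mup genes are uncertain. The family was grouped by name after values were seen.

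Slco1a1, a bile salt and organic anion transporter, was at 235, 248 and 208 CPM in WT and at 98.8, 76.8 and 137 CPM in LKO. All LKO samples were lower, at -1.14 ± 0.29 (edgeR adjusted p of 0.260), and Slco1a1 fell in the average over treatments (-1.0 ± 0.20, edgeR adjusted p of 0.0164). Of 14 bile acid genes 13 had a lower value, with a median of -0.24. At an unadjusted p below 0.05, 3 were lower (3.44% of all genes tested), and without overlap 4 were lower and 0 higher (7.58%, 7.52%). The median was -0.14 without WT vehicle 2, and -0.13 with 9 of 14 lower on the log2(FPKM + 1) scale. The uptake transporter Slco1b2 was at -0.43 ± 0.19, and Cyp7b1, an enzyme of the alternative synthesis pathway, at -0.63 ± 0.28. Cyp7b1 also fell in the average, with an edgeR adjusted p of 0.0348.

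Of 29 tested cytochrome P450 genes 25 had a lower value, with a median of -0.19. At an unadjusted p below 0.05, 4 were lower (3.44% of all genes tested), and without overlap 7 were lower and 0 higher (7.58%, 7.52%). Without LKO vehicle 1 or WT vehicle 2, 2 were lower at that p, without LKO vehicle 3 the median was -0.39, and on the log2(FPKM + 1) scale it was -0.11. Cyp2c37, an enzyme of arachidonic acid metabolism, was at 90.9, 107 and 93.0 CPM in WT and at 26.4, 51.0 and 47.1 CPM in LKO (-1.22 ± 0.31). Cyp2c29 was at 425, 455 and 430 CPM in WT and at 251, 261 and 360 CPM in LKO (-0.59 ± 0.18). Neither overlapped, and both fell in the average over treatments, with an edgeR adjusted p of 0.00252 each. Genes of the Cyp2c cluster are close copies that may share reads. Cyp4v3, a fatty acid hydroxylase, was at -0.43 ± 0.16.

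Conjugation enzymes leaned the same way, with 21 of 26 lower and a median of -0.26. At an unadjusted p below 0.05, 5 were lower (3.44% of all genes tested), and without overlap 10 were lower and 0 higher (7.58%, 7.52%). Gstt2, a glutathione transferase, was at -0.99 ± 0.25, the bilirubin transferase Ugt1a1 at -0.55 ± 0.20 and Gstp1 at -0.51 ± 0.18. Ugt1a1 and Gstp1 fell in the average over treatments, with edgeR adjusted p of 0.0454 and 0.0379. Without LKO vehicle 2, 17 of the 26 were lower, and without LKO vehicle 3 the median was -0.45.

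The remaining genes with the largest differences in value at an unadjusted p below 0.01 and without overlap had mixed roles. Foxq1, a forkhead transcription factor, was at 4.43, 7.69 and 2.92 CPM in WT and at 2.01, 1.10 and 2.20 CPM in LKO (-1.51 ± 0.37). Phlda1 was at 19.6, 14.1 and 12.8 CPM in WT and at 8.53, 5.04 and 8.84 CPM in LKO (-1.07 ± 0.23, edgeR adjusted p of 0.166). Vnn1, the pantetheinase vanin-1, was at -1.08 ± 0.33, Dpy19l3, a mannosyltransferase, at -0.98 ± 0.28, and the pseudogene Adh6-ps1, which can share reads with other alcohol dehydrogenases, at -1.22 ± 0.31. Foxq1, Phlda1 and Dpy19l3 fell in the average over treatments, with edgeR adjusted p of 0.0348, 0.0101 and 0.0227. Plekhb1, at 7.42, 6.41 and 6.12 CPM in WT and 3.55, 3.65 and 3.5 CPM in LKO, showed tight groups (-0.90 ± 0.21) and fell in the average, with an edgeR adjusted p of 0.00252. Zbtb16, a zinc finger transcription factor, and Retsat, a retinol saturase, overlapped with vehicle (-0.82 ± 0.34 and -0.96 ± 0.32) and fell in the average, with edgeR adjusted p of 0.0169 and 0.0262.

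Interferon genes leaned little as a list: 26 of 38 had a higher value, with a median of 0.10. At an unadjusted p below 0.05, 2 were higher and 1 lower, near the shares over all genes tested (4.71% and 3.44%). Without LKO vehicle 2, 18 of 38 had a higher value, with a median of -0.01. The median was 0.04 without WT vehicle 2, 0.06 without LKO vehicle 1, and 0.22 without LKO vehicle 3, with 7 higher at that p. In that last setting 1155 of all 9891 genes tested were at that p in either direction. With all samples the higher ones were Ly6e and Ifi27l2b, a member of the interferon-induced Ifi27 family, which was at 2.75, 2.18 and 2.92 CPM in WT and at 5.69, 15.5 and 9.61 CPM in LKO (2.0 ± 0.37, edgeR adjusted p of 0.0574). Irf7, a master regulator of interferon genes, had the opposite sign, at -0.74 ± 0.28. Cell division genes were at low counts, with 10 of 15 higher and a median of 0.31, which was 0.17 without WT vehicle 2, 0.16 without LKO vehicle 3 and 0.56 without LKO vehicle 2. With the vehicle groups alone in the fit, 12 of these genes were tested and 7 were higher, with a median of 0.07. Ccnd1, cyclin D1, was at 4.07, 5.25 and 4.66 CPM in WT and at 9.36, 11.7 and 18.1 CPM in LKO, with no overlap (1.51 ± 0.32, edgeR adjusted p of 0.166). Ccnd1 rose in the average over treatments, with an edgeR adjusted p of 0.00910. Mki67 was at 1.08, 1.79 and 1.75 CPM in WT and at 2.96, 2.85 and 7.71 CPM in LKO (1.62 ± 0.52), and Top2a at 2.30 ± 0.65. Among periportal genes, Cdh1, E-cadherin, was at 0.83 ± 0.28 and rose in the average (edgeR adjusted p of 0.0427), and the apolipoprotein Apoa4 was at 1.51 ± 0.60. In the lists of the circadian clock, the urea cycle and the pericentral zone, 0 genes were at an unadjusted p below 0.05 with vehicle.

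The same genotype difference was measured in the mice given tunicamycin, which share no library with the vehicle comparison. Across the 9644 genes, which are not independent replicates, the log2 fold changes in the 2 treatments had a Pearson r of 0.449 and a Spearman rho of 0.360. CPM ranges did not overlap in both treatments for 125 genes higher in LKO in both (1.3%), 111 lower in both (1.15%) and 31 in opposite directions (0.321%). Averaged over both treatments, 213 genes were called (2.21%), 130 higher and 83 lower, and with total count scaling 261 were called, 227 higher and 34 lower. All 213 had the same sign in both treatments, and 125 had non-overlapping CPM ranges in both. These include all 4 genes called with vehicle alone. The average contrast uses both treatments, so its calls favour genes that agree between them. These counts are therefore not separate evidence of agreement. For Serpine2 the tunicamycin values were 7.57, 6.49 and 5.56 CPM in WT and 3.06, 1.69, 1.12 and 1.19 CPM in LKO, so every LKO sample lay below every WT sample. For Col6a3 they were 3.58, 6.0 and 2.47 CPM in WT and 6.13, 9.50, 12.5 and 13.1 CPM in LKO. For Ly6e they were 54.5, 51.7 and 25.6 CPM in WT and 77.1, 77.3, 83.1 and 92.1 CPM in LKO, so in Col6a3 and Ly6e the lowest LKO sample exceeded the highest WT sample.

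The difference between the genotype effects was tested by an interaction term. edgeR called 0 genes, with a smallest adjusted p of 0.935 and 474 genes at an unadjusted p below 0.05, and DESeq2 also called 0, with 288 genes at that p. No gene's genotype difference was therefore shown to depend on tunicamycin in these samples. The matrix list had a median of 0.56 with vehicle and 0.56 after tunicamycin, and cholesterol synthesis 0.48 and 0.58. After tunicamycin, with 4 LKO samples, CPM ranges of the 38 matrix genes did not overlap for 6 higher and 1 lower. With vehicle these were 22 and 2, and 5 were higher and 1 lower without overlap in both treatments. Per-sample medians of the matrix list, set against the WT vehicle mean, were 0.05, 0.53 and -0.08 in WT tunicamycin 1 to 3. In LKO tunicamycin 1 to 4 they were 0.41, 0.66, 0.77 and 0.69, so WT tunicamycin 2 exceeded LKO tunicamycin 1. The ER chaperone list had medians of -0.07 and -0.77, and the acute-phase list 0.29 and -0.02.

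**Figure D5:**
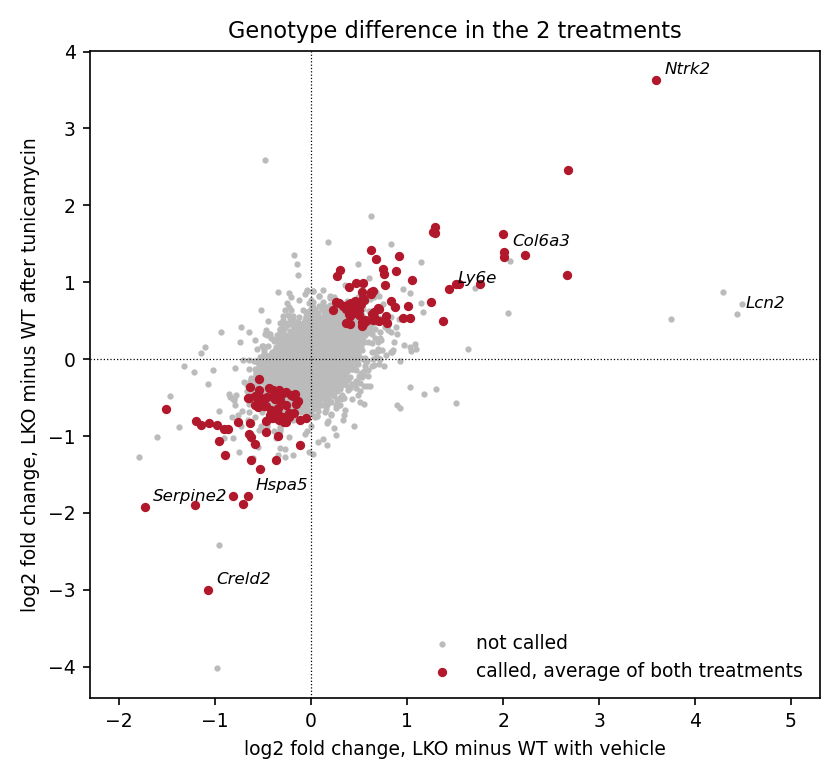
Log2 fold change of LKO against WT with vehicle (x) and after tunicamycin (y) for genes that averaged a log2 CPM of 2 or more, with genes called in the average of both treatments in red. Ntrk2, Col6a3 and Ly6e lie above 0 on both axes and Serpine2 below 0 on both, while Lcn2 is at 4.44 with vehicle and 0.59 after tunicamycin.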

How the data were processed

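Mouse liver RNA, given as polyadenylated RNA in the labels, was sequenced in 14 libraries. The deposited gene tables are raw read counts per gene by STAR, per the file headers, with columns for either strand, the gene's strand and the opposite strand. Trimmomatic, STAR, Cufflinks and mm10 are named in the submitters' processing notes, without versions, and the annotation and parameters are not given in the sources used here. A deposited table of FPKM, fragments scaled by the authors for transcript length and library size, served only as an alternative. The gene-strand counts were used, which held 99.5 to 99.6% of stranded reads. They ranged from 6507018 to 13519421 reads per library. No molecular identifiers were recorded, so intervals of single counts would cover counting error only, and the precision comes from the spread between samples. All per-sample columns belong to a sample (0 left over). LKO vehicle libraries 3 and 4 were summed because they differed by little more than counting error.

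Counts were fitted with edgeR 4.0.16 in R 4.3.3, with TMM scaling, filterByExpr by group, 1 mean per group over 13 samples and the quasi-likelihood test, which left 9 residual degrees of freedom and a common biological coefficient of variation of 0.155. Genes with a Benjamini-Hochberg adjusted p below 0.05 over 9644 genes are the called genes. Contrasts were LKO minus WT with vehicle, its average over vehicle and tunicamycin, and the interaction. Log2 CPM used a prior count of 2. Alternatives were DESeq2 1.42.0, limma 3.58.1 on log2(FPKM + 1) and log2(FPKM + 0.1), other scalings and filters, the replicate block, and leaving out each sample. Tested on simulated data for the vehicle contrast with 9543 genes, the fit called 85% of 100 genes changed by 1 and 99% of 100 genes changed by 2 on the log2 scale. The changed genes averaged a log2 CPM of 2 or more, and 12 of all 196 calls were false. Counts were drawn from the fitted spread without outlying samples, so these shares do not give the power in the real data. Gene positions and promoters are RefSeq's (GRCm38.p6, the build of mm10), and 9621 of 9644 symbols were matched, synonyms included.

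Named genes were Rbbp5 and the H3K4 list; the called genes; the 10 highest and 10 lowest log2 fold changes with vehicle with an unadjusted p below 0.01, an average log2 CPM of 2 or more and separate ranges; the 10 highest and lowest called in the average; and up to 3 genes of smallest p and 2 of highest mean CPM in each list. Read counts of some markers below the filter are also given, chosen after their values were seen. The comparison, lists and rules were chosen with earlier results of these data known. For 1 called gene no values are reported here.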

Additional observations from a re-analysis of the deposited data

Results flagged for a closer look

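Ntrk2 in the LKO mice given tunicamycin had 1 sample far from the others: LKO tunicamycin 3 was at 20.3 CPM, and the other 3 were at 2.27, 2.08 and 4.56 CPM. Its gap to the nearest sample exceeded Dixon's 95% critical value for a group of 4, which chance does in about 1 in 20 groups. In the vehicle samples Ntrk2 was at 0.48, 0.64 and 0.58 CPM in WT and at 5.45, 7.52 and 7.65 CPM in LKO, so the difference with vehicle does not rest on that sample. It does enter the shared estimate of the spread: without LKO tunicamycin 3, edgeR called Ntrk2 with vehicle, with an adjusted p of 0.000317. Gldn was also highest in LKO tunicamycin 3, with 153 reads.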

How the results depend on the processing

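The count of 4 genes called with vehicle was 20 with DESeq2, 8 with total count scaling, 84 without a filter on low counts (16251 genes tested), 12 with 14 libraries kept separate and 25 with the vehicle groups alone in the fit. It was 4 with RLE size factors or without Rn45s and Lars2, and 6 with LKO vehicle library 3 used without library 4. limma on FPKM called 0 in each of its 3 settings, at 1101, 304 and 295 genes with an unadjusted p below 0.05. With the replicate block edgeR called 0 with vehicle (842 at an unadjusted p below 0.05) and 167 in the average, beside 213. The numbers do not pair the samples: deviations of same-numbered vehicle samples correlated at 0.02 to 0.03. Leaving out 1 sample gave 0 to 17 calls with vehicle. There were 0 without WT vehicle 1, 2 or 3 or without LKO tunicamycin 2 (594, 696, 708 and 764 at an unadjusted p below 0.05), 1 without LKO vehicle 1 and 2 without LKO vehicle 2. There were 8 without LKO vehicle 3, 13 and 17 without WT tunicamycin 2 and 3, and 7 without LKO tunicamycin 3. Without LKO vehicle 1, 2 or 3, 682, 616 and 1155 genes were at an unadjusted p below 0.05, beside 786 with all samples. A group left with 2 samples takes its spread from all groups.

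The 213 calls of the average were 514 without a filter, 74 with log2(FPKM + 1) and no filter, 29 with a mean FPKM of at least 1 and 30 with log2(FPKM + 0.1). They ranged from 62 (without WT vehicle 1) to 413 (without WT tunicamycin 2) when 1 sample was left out, and all 62 were among the 213. The interaction gave 0 to 2 calls when 1 sample was left out, the 2 without WT tunicamycin 3. Total count scaling moved the median interaction of all genes to 0.13, from -0.02. The log2 fold changes of 81 named genes were followed across settings, and other genes in the text, such as Fn1, were not. Of these 81, only that of Dpy30 changed sign, to 0.13 without WT vehicle 2 and to 0.02 without LKO vehicle 3. Its range was from -0.15 to 0.13 when 1 sample was left out. Of 1959 values, each of 1 gene in 1 alternative setting, 26 lost a call and 99 gained one. Only Serpine2, Ly6e and Col6a3 of the 81 had a call to lose. They were called in 15 of 23, 15 of 25 and 15 of 23 alternative settings. The list values without 1 vehicle sample or on FPKM were alternatives chosen after seeing the data. At 1750308 to 3551398 reads per library outside Rn45s, genes under about 1 CPM rest on few reads.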

Other observations

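The further lists given here had medians from -0.17 to 0.03 with vehicle. Of 34 tested autophagy and lysosome genes 18 had a higher value in LKO, with a median log2 fold change of 0.01. Of these 34, CPM ranges did not overlap for 7 higher (7.52% of all genes tested) and 1 lower (7.58%). Of 15 genes of ER-associated degradation 12 were lower, with a median of -0.12 and 0 at an unadjusted p below 0.05 in edgeR. Of 14 stress transcription genes (targets of ATF4 and CHOP) 10 had a lower value, with a median of -0.15. At that p, 1 was lower (3.44% of all genes tested). Apolipoprotein genes had a median of -0.05 with 9 of 15 lower, and genes of the growth hormone axis and of sex-biased expression -0.15 with 9 of 15 lower. Lipogenesis genes had a median of -0.10 with 12 of 18 lower, which was -0.02 without LKO vehicle 2, -0.05 without WT vehicle 3 and -0.20 without LKO vehicle 3. Genes of glucose and glycogen metabolism had -0.17 with 14 of 16 lower, and -0.36 without LKO vehicle 3. NRF2 antioxidant genes had 6 of 10 higher and a median of 0.03, which ranged from -0.17 to 0.02 when 1 vehicle sample was left out. Immediate-early genes had 9 of 12 lower, with a median of -0.15 and 0 at an unadjusted p below 0.05 in edgeR. Without LKO vehicle 2, 6 of the 12 were lower and the median was 0.00, and it was -0.10 without LKO vehicle 1 or WT vehicle 2 and -0.31 without LKO vehicle 3.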
